A study of Mus musculus with 6 samples.

Results

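Cxcl12 encodes the chemokine CXCL12, also known as stromal cell-derived factor 1, and it is the gene whose reporter was used to sort the cells of the study. The account below follows its row, 1 of 27179 gene rows in the deposited counts, of which 14425 had at least 1 count. Stromal cells of the bone marrow were taken at stage P2 from mice of the C57BL/6 strain with the genotype Cxcl12-dsred/+, and cells of the blood, erythroid and endothelial lineages (CD45, Ter119 and CD31) were left out of the sort. Poly(A) RNA was pulled down with an antibody to N6-methyladenosine (m6A) or with IgG on beads, and 6% of it was kept back as Input. There were 2 libraries each of Input, IgG and anti-m6A, all from cells of the same genotype, which carries DsRed at 1 Cxcl12 allele. Reads of the DsRed-bearing and the other allele were not told apart.

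CXCL12 is secreted by perivascular stroma and osteoblast-lineage cells of the marrow and binds the receptor CXCR4 on haematopoietic stem cells, B cell progenitors and other leukocytes, which holds them in their niche. A second receptor, ACKR3, takes the chemokine up and removes it. m6A is written on nascent mRNA by the METTL3-METTL14 complex, mostly in a short sequence context around GGAC and often near the stop codon, and reader proteins bound to it change the decay, splicing or translation of the transcript.

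The gene lies on the plus strand of chromosome 6, at 117168535 to 117181367 in the GENCODE M21 annotation of GRCm38. The annotation has 3 coding isoforms there, alpha with 3 exons and 1878 bases, beta with 4 exons and 3132 bases, and gamma with 4 exons and 5627 bases. Their coding parts hold 270, 282 and 360 bases and are identical over the first 267, so most of each transcript is 3′ UTR (1487, 2768 and 5188 bases). The shared coding start and the ends at which the isoforms part are shown because the counts are summed over the gene, and this is what they cannot separate. All 3 use the start codon at the first base:
shared coding start: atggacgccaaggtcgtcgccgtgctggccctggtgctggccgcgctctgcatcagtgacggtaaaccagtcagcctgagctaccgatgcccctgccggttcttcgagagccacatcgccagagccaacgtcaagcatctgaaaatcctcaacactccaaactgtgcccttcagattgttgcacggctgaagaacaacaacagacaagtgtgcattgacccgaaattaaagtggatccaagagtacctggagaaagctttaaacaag
alpha end: taa
beta end: aggctcaagatgtga
gamma end: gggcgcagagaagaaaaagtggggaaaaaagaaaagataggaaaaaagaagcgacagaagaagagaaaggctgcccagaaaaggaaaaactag

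The transcripts were searched on the sense strand, the only one an mRNA has, for GGAC followed by any base but G, a form of the sequence context of m6A. It does not occur in the coding part of any isoform. The 3′ UTR holds 4 matches in alpha, 10 in beta and 24 in gamma, and 10 of the gamma matches are those of beta. Of the 4581 coding transcripts of other genes within 10% of the length of alpha, 99.6% hold at least 1 match, with a median of 7, and 12.6% have fewer than the 4 of alpha. The medians for transcripts of the lengths of beta and gamma are 11 (5151 transcripts, 99.9% with a match) and 19 (2326 transcripts, all with a match). For their lengths, alpha thus carries fewer matches than the median transcript and gamma more. The first match after each stop codon is shown with 12 bases on either side, the match in capitals; it begins 16 bases after the stop codon in alpha, 119 in beta and 20 in gamma:
alpha, chr6:117173586-117173614: caacagcccaaaGGACTttccagtagacc
beta, chr6:117178705-117178733: gccgtttgcaagGGACTtgctttgcacag
gamma, chr6:117176187-117176215: cttcctgccgatGGACCgcagtgcgctct
A match is a description of the annotated sequence. The counts carry no position within the gene, and none of these sites was measured.

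**Figure D1:**
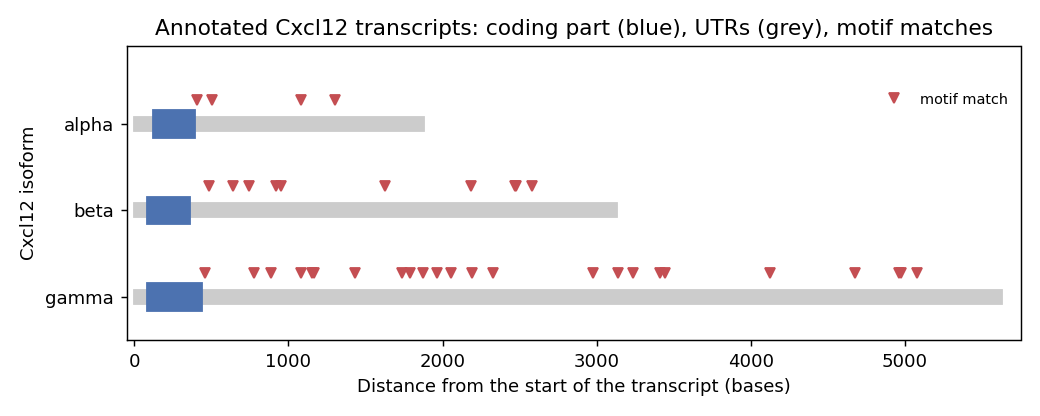
The 3 annotated coding transcripts of Cxcl12, drawn as distance in bases from the transcript start, with the coding part in blue, UTRs in grey and matches to GGAC followed by any base but G as triangles. All 4 matches in alpha, 10 in beta and 24 in gamma lie to the right of the coding part.

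Total counts were 7125578 and 9493391 in Input, 2487148 and 1278735 in IgG, and 6102070 and 5133237 in anti-m6A, with between 2723 genes (IgG replicate 2) and 12714 genes (anti-m6A replicate 1) detected in a library. Whether the replicates are different animals is not stated in the labels; every p-value therefore measures the spread of these samples alone, which may be technical. All 7 listed markers of marrow stroma (Lepr, Pdgfra, Pdgfrb, Kitl, Prrx1, Foxc1 and Ebf3) had counts in each Input and anti-m6A library, and 4 and 3 of the 7 had counts in the IgG libraries. The 5 hepatocyte markers (Alb, Apoa1, Ttr, Serpina1b and Agxt) summed to 68.5 and 799 CPM (counts scaled to the TMM-adjusted library total) in Input, 15399 and 14562 in IgG, and 423 and 461 in anti-m6A. Their part in the results for IgG was not tested. The 7 blood markers summed to 25.1 and 143 CPM in Input and to 1765 and 1227 in IgG, where S100a8 (1384 and 988 CPM) and Mpo (382 and 239) made up the sum, and all 7 were at 0 in both anti-m6A libraries. The erythroid markers summed to 160 and 243 CPM in Input, 1278 and 1247 in IgG, and 305 and 355 in anti-m6A. All 5 endothelial markers were at 0 in both IgG libraries and summed to 41.1 and 72.2 CPM in Input and 9.93 and 9.31 in anti-m6A. The part of blood and erythroid RNA in the results was not tested.

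Cxcl12 was among the 3 most counted genes of the sorted cells and took a smaller share of both pull-downs. It had 40835 and 45101 counts in the Input libraries, 7051 and 4153 in IgG, and 9960 and 8477 in anti-m6A. These were 0.573% (exact Clopper-Pearson 95% interval 0.568 to 0.579) and 0.475% (0.471 to 0.479) of the Input counts. They were 0.283% (0.277 to 0.290) and 0.325% (0.315 to 0.335) of the IgG counts, and 0.163% (0.160 to 0.166) and 0.165% (0.162 to 0.169) of the anti-m6A counts. The 3 groups did not overlap, with Input highest, IgG between and anti-m6A lowest. The intervals reflect counting error alone: PCR copies were not marked with molecular identifiers, so counts are not independent molecules. The 2 anti-m6A libraries differed by less than that error (variance 0.624 times that of random counting), whereas the Input pair differed by 756 times and the IgG pair by 48.4 times.

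By count, Cxcl12 ranked 2 of 10024 detected genes in Input replicate 1, after Spp1 (osteopontin, a bone matrix protein), and 3 of 11186 in Input replicate 2, after Spp1 and CYTB (the mitochondrial cytochrome b gene). It ranked 25 of 3266 and 24 of 2723 in the IgG libraries and 57 of 12714 and 61 of 12391 in the anti-m6A libraries. Spp1 stayed first in all 6. The counts directly above and below Cxcl12 were those of B2m (7289, beta-2-microglobulin) and Ppic (6923) in IgG replicate 1 and of Pfn1 (4233, profilin) and Selenof (4021) in IgG replicate 2. In anti-m6A they were those of Ndufb9 (10075) and Serpine2 (9869) in replicate 1. In anti-m6A replicate 2 the count directly below was that of Ccdc124 (8403). In Input replicates 1 and 2 the gene directly below was Fstl1 (31960) and Fth1 (39669). By mean CPM, 56 genes stood above Cxcl12 in anti-m6A, and 54 of them were below it in Input; in IgG these were 22 of 24.

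These ranks compare counts, which grow with transcript length. Per kilobase, with other genes at their longest annotated transcript, Cxcl12 ranked 3 in both Input libraries if all its counts came from alpha, and 40 and 72 if all came from gamma. In anti-m6A the same ranks were 144 and 148 for alpha and 451 and 458 for gamma. On either length the gene stood lower in anti-m6A than in Input.

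**Figure D2:**
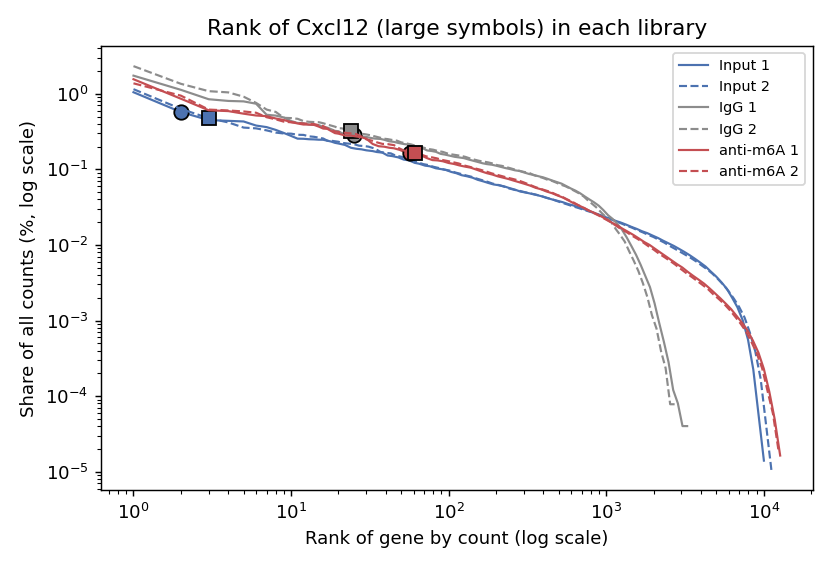
Share of all counts (percent, log scale) against the rank of a gene by count (log scale) in each of the 6 libraries, with Cxcl12 as a large symbol (circle, replicate 1; square, replicate 2). Cxcl12 sits at ranks 2 and 3 in Input, 24 and 25 in IgG, and 57 and 61 in anti-m6A.

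The comparison of anti-m6A with Input asks whether a transcript made up more or less of the pull-down than of the Input RNA. It does not separate RNA bound by the antibody from RNA that adheres to the beads. On the TMM scale Cxcl12 stood at 4821 and 4365 CPM in Input and at 2061 and 2132 CPM in anti-m6A. Each anti-m6A library held between 0.427 and 0.488 of the level of each Input library. The log2 change was -1.13 ± 0.12 (SE, 2 libraries a group; edgeR quasi-likelihood adjusted p = 0.00716). Of all 11281 genes tested, 20.5% were called lower in this comparison, 28% higher and 48.4% in either direction, and the median log2 change of all of them was 0.18. The 3 comparisons share libraries and are not independent of one another. The call held in each of 13 alternative fits, with log2 changes from -1.70 to -1.04. Leaving out anti-m6A replicate 1 reduced the number of genes called lower from 2308 to 72 and leaving out replicate 2 to 93, and Cxcl12 was called in both fits (edgeR adjusted p = 0.0434 and 0.0350).

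IgG on beads is the control for RNA that adheres to beads without the m6A antibody. The IgG libraries also held RNA that was not counted in Input. Agxt had 3570 and 2208 counts and Mpo 989 and 370 in IgG, and both were at 0 in Input. The source of that RNA was not tested, nor how much of the IgG level of Cxcl12 is bead background. Cxcl12 stood at 2720 and 2686 CPM in IgG, 0.557 to 0.623 of the level of each Input library. Its log2 change was -0.77 ± 0.12 (SE, 2 libraries a group; edgeR adjusted p = 0.00286), where 61.5% of the genes tested were called lower, 9.89% higher and 71.4% in either direction. It was called in each of the 13 alternative fits (log2 changes from -1.66 to -0.76). Counts in both IgG libraries were the rule at its level: 49 of the 50 genes highest in Input had them, against 77.1% of the 450 genes next in rank. Cxcl12 was 30.4 and 59.3 times the sum of the 7 stromal markers in IgG, 2.94 and 2.18 times in Input, and 1.68 and 1.67 times in anti-m6A.

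Against IgG, the level in anti-m6A was 0.758 to 0.794 of that in each IgG library. The log2 change was -0.37 ± 0.12 (SE, 2 libraries a group; edgeR adjusted p = 0.0348), where 8.31% of genes were called lower, 73.1% higher and 81.4% in either direction. The call was lost in 8 of 13 alternative fits. Among them, it was lost without IgG replicate 1 (log2 -0.34, edgeR adjusted p = 0.0869), IgG replicate 2 (-0.39, 0.0620), anti-m6A replicate 1 (-0.34, 0.184) and anti-m6A replicate 2 (-0.37, 0.169), where the size of the change was close to that with all libraries. When the fit was limited to the 1757 genes that reached 10 counts in all 6 libraries, the change was -0.041 (edgeR adjusted p = 0.834). The direction was the same in each of the 13 fits, and with library totals in place of TMM the change was -0.89 (edgeR adjusted p = 0.00280). Input stood above both pull-downs by a called difference in each fit, whereas anti-m6A stood below IgG in each fit with a call in 5 of 13.

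**Figure D3:**
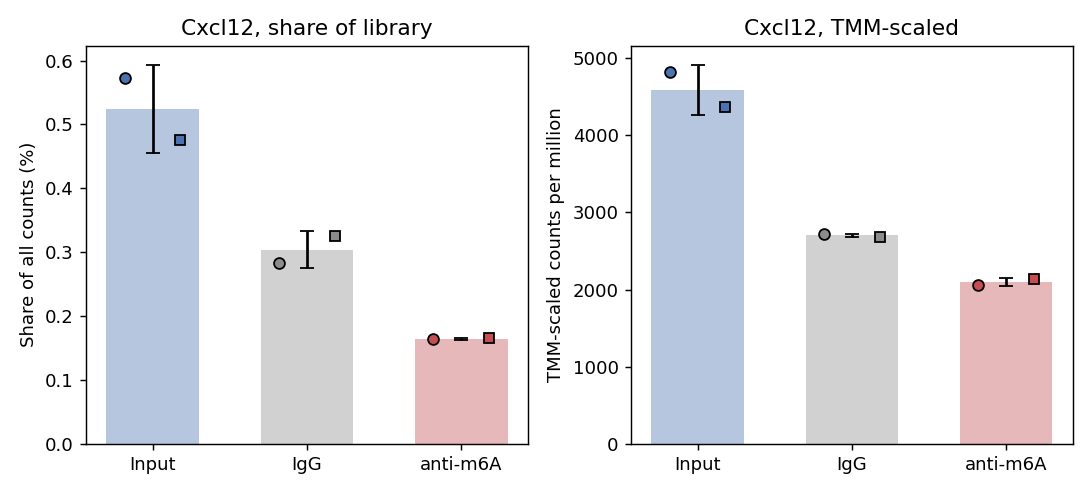
Cxcl12 in the 3 groups as a share of all counts (left, percent) and on the TMM scale (right, CPM); bars are means, whiskers the SD of 2 libraries, and points the libraries (circle, replicate 1; square, replicate 2). Input is at 4821 and 4365 CPM, IgG at 2720 and 2686, and anti-m6A at 2061 and 2132.

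In Input, 10 genes had a mean level within 2-fold of that of Cxcl12 (4593 CPM). They were CYTB, Fth1 (ferritin heavy chain), Fstl1 (follistatin-like 1), Malat1 (a nuclear long non-coding RNA), Serpine2 (a protease inhibitor of the matrix), Actb (beta-actin), Sparc (osteonectin), Apoe (apolipoprotein E), Hp (haptoglobin) and Pfn1. The anti-m6A to Input ratio of mean CPM was 0.456 for Cxcl12 and ran from 0.441 to 3.28 among the 10, with a median of 2.21. Only Fstl1 was below Cxcl12. CYTB (0.698) and Serpine2 (0.709) followed, and the highest were Sparc (2.88), Pfn1 (3.12) and Fth1 (3.28). Cxcl12 minus the median of the 10 was -2.27 on the log2 scale. The same difference was -1.22 against the 4 genes within 1.5-fold and -1.23 against the 6 genes within 2-fold in each Input library.

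Fstl1 stood at 3774 and 2512 CPM in the Input libraries and at 1499 and 1270 in the anti-m6A ones (log2 -1.18 ± 0.31, SE; edgeR adjusted p = 0.0291). Fth1 went the other way, with 3196 and 3839 CPM in the Input libraries and 10854 and 12192 in the anti-m6A ones (log2 1.71 ± 0.15, SE; edgeR adjusted p = 0.00716). For neither gene did the groups overlap. Of the 10 genes, 6 were called higher and 2, Fstl1 and Serpine2, lower. Serpine2 was not called without anti-m6A replicate 1 or 2 (edgeR adjusted p = 0.241 and 0.194), nor was Fstl1 (0.0821 and 0.0986) or Malat1 (0.0687 and 0.105). The IgG to Input ratio of Cxcl12, 0.588, was likewise the second lowest of the 11 genes, after that of Serpine2 (0.466), and the median of the 10 was 1.30. In anti-m6A against IgG, 5 of the 10 were called higher and 2 lower, where 73.1% and 8.31% of all genes tested were. Of the 6 called higher than Input, Malat1, Sparc, Pfn1 and Fth1 were also called higher than IgG. Apoe was called lower than IgG (log2 -0.84; edgeR adjusted p = 0.00174), and Hp was not called (log2 0.056; edgeR adjusted p = 0.750).

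Among the 50 genes with the highest Input levels, Cxcl12 was the 13th lowest in its anti-m6A to Input ratio, where the median of the other 49 was 1.62. By the same test 24 of the 49 were called higher and 14 lower, against 28% and 20.5% of all genes tested. Without anti-m6A replicate 1 the lower calls fell to 1 and without replicate 2 to 3. Cxcl12 was thus on the low side of the most abundant transcripts without being the lowest of them.

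**Figure D4:**
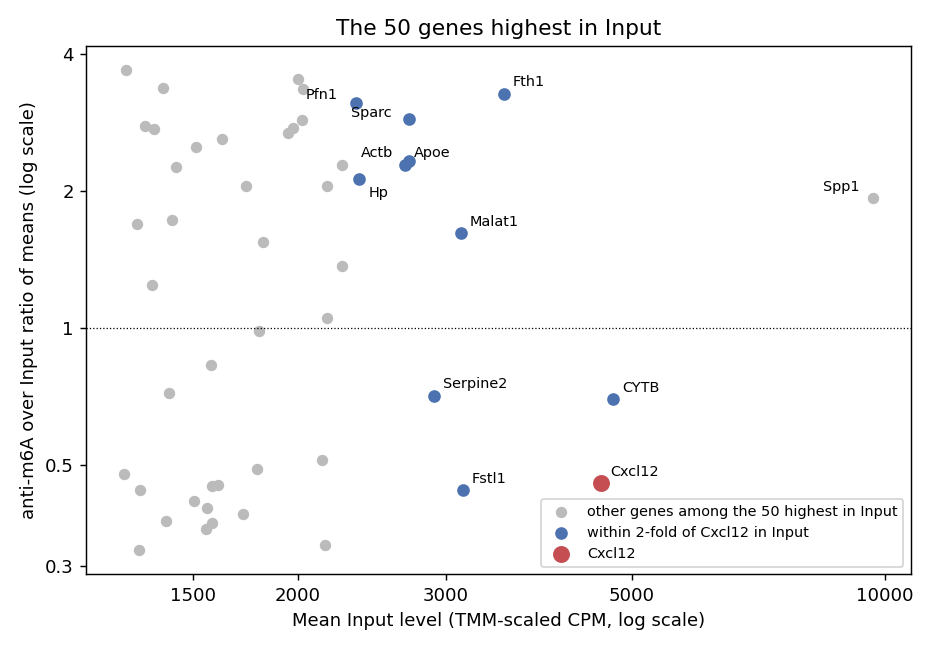
The ratio of mean anti-m6A to mean Input CPM (log scale) against mean Input CPM (log scale) for the 50 genes highest in Input; Cxcl12 is red, the 10 genes within 2-fold of its Input level are blue, and the dotted line marks a ratio of 1. Cxcl12 lies at 0.456 with Fstl1 just below it at 0.441, and 7 of the 10 blue genes lie above the line.

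The genes whose profile over the 6 libraries was most like that of Cxcl12 were sought among the 1756 other genes that reached 10 counts in all 6 libraries, by Euclidean distance between centred log2(CPM + 1) values. The 8 nearest were Morf4l2, Morf4l1-ps1, Lhfp, Tln1, Rab7, Esm1, Lpl and E030024N20Rik, at distances of 0.305 to 0.533 where the median gene was at 2.78. Morf4l2 belongs to a chromatin-associated protein family, Tln1 encodes talin, which links integrins to actin, Rab7 a GTPase of late endosomes, and Lpl lipoprotein lipase. Morf4l1-ps1 is named as a pseudogene and can share reads with its parent gene, so that its counts are uncertain. Morf4l2 stood at 250 and 252 CPM in Input, 142 and 136 in IgG, and 125 and 99.4 in anti-m6A, in the same order as Cxcl12 at 0.0547 of its mean Input level. Lpl, the most abundant of the 8, stood at 1623 and 1496 CPM in Input, 786 and 615 in IgG, and 655 and 596 in anti-m6A. This is likeness of profile over 6 libraries only, and the 8 genes were picked for it.

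Within the chemokine family Cxcl12 was set apart by its counts, which were not corrected for transcript length here. Its isoforms run from 1878 to 5627 bases, and the longest transcript is 1827 bases for Cxcl14 and 1096 for Ccl2. Besides Cxcl12 the table holds 41 chemokine ligands, of which 24 had counts and 19 were tested. Cxcl12 made up 87.5% (exact 95% interval 87.2 to 87.8) and 86.1% (85.8 to 86.4) of all chemokine ligand counts in Input and 82.9% (82.0 to 83.7) and 84.5% (83.5 to 85.5) in IgG. In anti-m6A its part was 65.1% (64.3 to 65.8) and 64.5% (63.7 to 65.3), below every other library. The only other chemokine with counts in IgG was Cxcl14, a chemokine of epithelium and stroma. Cxcl14 had 1866 and 1548 counts in Input, 1458 and 760 in IgG, and 2955 and 2873 in anti-m6A. On the TMM scale it stood at 220 and 150 CPM in Input, 562 and 491 in IgG, and 611 and 723 in anti-m6A. IgG was thus above Input as well, by 1.51 on the log2 scale (edgeR adjusted p = 0.00372). Anti-m6A exceeded IgG by only 0.34, without a call (edgeR adjusted p = 0.254). In anti-m6A Cxcl14 rose against Input by a log2 change of 1.85 ± 0.26 (SE, 2 libraries a group; edgeR adjusted p = 0.00716), while Cxcl12 fell. The Cxcl14 call was lost without anti-m6A replicate 2 (edgeR adjusted p = 0.0615).

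Ccl2, which attracts monocytes, was the most counted of the others in Input, with 1976 and 1809 counts, and had 0 in both IgG libraries and 635 and 269 in anti-m6A. Ccl7, a related monocyte chemokine, had 27 and 1480 counts in Input and 350 and 309 in anti-m6A; the Input libraries lay on both sides of the anti-m6A ones. Pf4, platelet factor 4, had 171 and 623 counts in Input and 262 and 247 in anti-m6A. Ccl27a, an epithelial chemokine with near-identical copies and so uncertain, rose from 151 and 78 counts to 283 and 230 (log2 change 2.20 ± 0.57, SE; edgeR adjusted p = 0.0381; 0.281 and 0.311 without anti-m6A replicate 1 or 2). Of the 19 tested, 7 were called higher and 4 lower than in Input, where 28% and 20.5% of all genes tested were called. The median log2 change was 0.53. Of the 19, 4 were at 0 in both Input libraries and could only be called higher. Another 2 were at 0 in both anti-m6A libraries and could only be called lower. Each was called so. Against IgG 15 of the 19 were called higher and none lower by edgeR, where 73.1% and 8.31% of all genes were. Of the 19, 18 were at 0 in both IgG libraries.

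**Figure D5:**
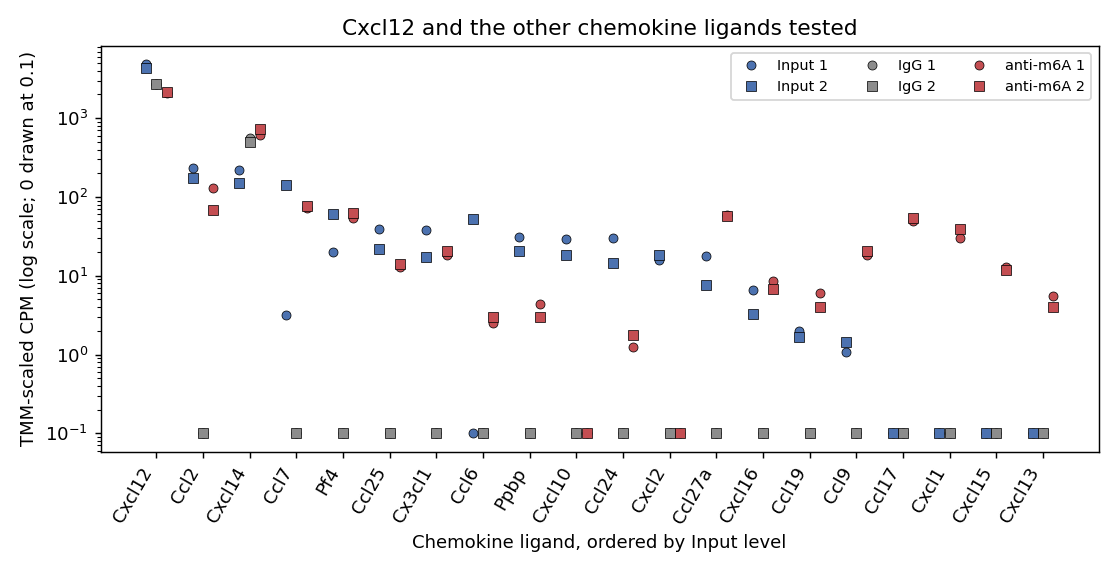
Levels of Cxcl12 and the 19 other chemokine ligands tested (TMM-scaled CPM, log scale, with 0 drawn at 0.1) in each library (colour, group; circle, replicate 1; square, replicate 2), ordered by mean Input level. Cxcl12 lies above the other ligands in each library, and Cxcl14 is the only other ligand above 0 in IgG.

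The receptors were next to absent from the sorted cells. Cxcr4 had 2 counts in Input replicate 1 and 0 in the other 5 libraries, and Ackr3 had 29 counts in Input replicate 2, 2 in anti-m6A replicate 2 and 0 in the other 4. Neither passed the filter on low counts, and neither gives a fold. Among other ligands or partners, Mif, a cytokine that also binds CXCR4, rose: its Input level was 211 ± 14.3 CPM and its anti-m6A level 617 ± 50.1 (SD, n = 2 each; log2 change 1.55 ± 0.46, SE; edgeR adjusted p = 0.0427). The Mif call was lost without anti-m6A replicate 1 or 2 (0.139 and 0.183) and with DESeq2's size factors (0.0533). Hmgb1, a chromatin protein that binds CXCL12 outside the cell, was higher in IgG (230 ± 19.5 CPM) than in anti-m6A (108 ± 10.0; SD, n = 2 each).

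Of 9 listed enzymes that cut CXCL12, 4 were tested, and Ctsg, Elane and Cpm were at 0 in every library. Mmp9 stood at 630 ± 94.2 CPM in Input, Mmp14 at 437 ± 48.3, Mmp2 at 294 ± 31.6 and Ctsk (cathepsin K) at 133 ± 37.5 (SD, n = 2 each). In anti-m6A they stood at 281 ± 4.91, 518 ± 34.9, 45.9 ± 3.33 and 63.8 ± 2.20 CPM. None of the 4 was called against Input by edgeR (adjusted p from 0.0503 for Mmp2 to 0.331 for Mmp14), but Mmp2, Mmp9 and Ctsk were called lower with DESeq2's size factors (0.0199, 0.0409 and 0.0191) and by DESeq2 itself (5.59e-21, 8.02e-05 and 2.44e-06). All 4 were called higher than in IgG, as were 73.1% of all genes tested. Dpp4, which removes the N terminus of CXCL12, and Cpn1, which removes its last residue, had counts above 2 only in Input replicate 2 (57 and 196).

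Heparan sulphate proteoglycans hold the chemokine at the cell surface and in the matrix. Of 15 genes for them and their synthesis, edgeR called 5 lower in the anti-m6A libraries than in Input and none higher, with a median log2 change of -0.32, where 20.5% and 28% of all genes tested were called. Gpc1 (glypican 1) fell from 240 ± 1.43 to 87.1 ± 14.7 CPM (SD, n = 2 each; log2 change -1.46 ± 0.24, SE; edgeR adjusted p = 0.00788), and Gpc6 from 168 ± 34.2 to 79.9 ± 6.99 CPM (adjusted p = 0.0448). Sdc4 (syndecan 4) stood at 432 ± 61.8 and 361 ± 177 CPM, Sdc2 at 190 ± 27.9 and 327 ± 25.2, and Ext2, a chain polymerase, at 142 ± 47.1 and 135 ± 8.88; none of these 3 was called. Without anti-m6A replicate 1 or 2, Gpc1 (edgeR adjusted p = 0.106 and 0.160) and Gpc6 (0.324 and 0.389) were not called.

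Of 13 tested genes of receptor signalling and desensitisation, 3 were called lower than in Input and 1 higher, where 20.5% and 28% of all genes tested were. The 1 called higher was at 0 in both Input libraries, so it could not have been called lower. Gnai3, a G protein alpha subunit, fell from 97.3 ± 2.39 to 12.7 ± 1.62 CPM (SD, n = 2 each; edgeR adjusted p = 0.00716; 0.0939 and 0.104 without anti-m6A replicate 1 or 2). Gnai2 stood at 430 ± 39.3 and 284 ± 3.97 CPM, Gnai1 at 77.5 ± 33.2 and 43.4 ± 8.70, and Gnb1 at 771 ± 261 and 1079 ± 489. Grk2, the kinase that desensitises the receptor, stood apart: it had 160 and 118 counts in Input, 2492 and 1390 in IgG, and 38 and 31 in anti-m6A. Of 9 regulators of Cxcl12 expression or secretion, 2 were called lower and 2 higher, against the same shares of all genes. Of the 2 called higher, 1 was at 0 in both Input libraries and could not have been called lower. Gja1 (connexin 43) fell from 377 ± 69.4 to 72.1 ± 15.9 CPM (edgeR adjusted p = 0.0185; 0.0819 and 0.0982 without anti-m6A replicate 1 or 2) and Gjc1 (connexin 45) rose from 50.5 ± 23.8 to 170 ± 17.1 CPM (0.0348; 0.147 and 0.207). The transcription factors Ebf3, Ebf1 and Foxc1 stood at 230 ± 9.31, 208 ± 70.8 and 155 ± 48.1 CPM in Input and at 150 ± 3.23, 135 ± 3.64 and 85.2 ± 4.82 in anti-m6A, and were not called (edgeR adjusted p from 0.145 to 0.451). DESeq2 called all 3 lower (adjusted p = 4.31e-08 for Ebf3, 0.0139 for Ebf1 and 7.15e-05 for Foxc1), and edgeR called Ebf3 with DESeq2's size factors (0.0161).

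Over the 94 genes of these lists 63 were tested, of which 43 were at 0 in both IgG libraries. The 6 at 0 in both Input libraries could only be called higher than Input, and the 2 at 0 in both anti-m6A libraries only lower. Each was called so. Against Input the median log2 change was -0.50, and 0.18 over all genes tested. Of the 63, 11 were called higher than Input and 14 lower, where 28% and 20.5% of all genes were. Without anti-m6A replicate 1 these counts were 2 and 0, without replicate 2 they were 1 and 1, and without Input replicate 1 or 2 they were 17 and 24 or 20 and 25. Against IgG, 49 were called higher and 4 lower, where 73.1% and 8.31% of all genes were; the 4 were Hmgb1, Gpc1, Hspg2 (perlecan) and Grk2.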

How the data were processed

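Per the labels, poly(A) RNA of sorted Cxcl12-DsRed+ cells was incubated with antibody on beads, eluted with free N6-methyladenosine monophosphate and made into Smart-seq2 libraries, without molecular identifiers or strand; no fragmentation is stated. The authors deposited raw counts per Entrez gene. Tools listed in the submitters' processing notes, with no role, are Picard, featureCounts and edgeR 3.38.1, and the build is mm10; for the aligner and the annotation, not given in the sources used here. Symbols came from RefSeq (GRCm38.p6; 25275 of 27179 matched), transcripts and lengths from GENCODE M21 (GRCm38).

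Groups and replicates follow the sample titles. Counts were tested in R 4.3.3 with edgeR 4.0.16: filterByExpr (minimum count 10, total 15; 11281 genes kept), TMM, and 1 quasi-likelihood fit of all 6 libraries (3 residual degrees of freedom), with Benjamini-Hochberg adjustment over all genes and a threshold of 0.05. DESeq2 1.42.0 was an alternative. The SE is the log2 change divided by the square root of F. An exact permutation test of 2 against 2 libraries cannot pass 0.05 and was not used. The scripts were tested on simulated data. Named genes follow a written rule: Cxcl12, its receptors, up to 5 members of each list with the highest mean CPM, the 8 genes nearest in profile, the genes nearest in Input level with those at the ends of their ratios, and the genes next to it in count. Genes outside it (Dpp4, Ctsg, Elane, Cpm, Hspg2, the markers, the genes of 4 kb or more) were named after their values were seen. The gene and the lists were chosen with earlier results of these data known. Some results are not reported here.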

Additional observations from a re-analysis of the deposited data

How the results depend on the processing

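Cxcl12 kept its direction in all 3 comparisons under each of 13 alternatives. Its calls against Input held in all of them, for anti-m6A (-1.70 to -1.04) and for IgG (-1.66 to -0.76). Against IgG the anti-m6A change lost its call with DESeq2's size factors (-0.34, adjusted p = 0.121), by DESeq2's Wald test (-0.34, 0.0827), in the fit of the 1757 genes that reach 10 counts in all 6 libraries (-0.041, 0.834) and in the fit with a replicate block (-0.37, 0.0855); leaving out 1 library gave -0.39 to -0.34. The median log2 change of all genes, anti-m6A against Input, was 0.18 with TMM, -0.22 with DESeq2's size factors and -0.32 with library totals.

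Differences between replicates 2 and 1 correlated over 11281 genes at 0.041 (Input and IgG), 0.086 (Input and anti-m6A) and 0.0997 (IgG and anti-m6A). Only 3266 and 2723 genes were detected in the IgG libraries, and genes with few counts weigh as much as abundant ones. These values therefore cannot decide whether same-numbered libraries share a batch. The count of genes lower in anti-m6A against Input was 1242 with the replicate block and 2308 without it. It was 518 in the fit of those 1757 genes and 3635 by DESeq2's Wald test, and 72 to 3961 with 1 library left out. In the same smaller fit, 586 genes were lower in anti-m6A against IgG (938 of 11281 otherwise; 659 to 1140 with 1 library left out) and 571 lower in IgG than in Input (6941 otherwise; 6401 to 7914).

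The distance of Cxcl12 from the median anti-m6A to Input ratio of genes of like Input level (-2.27) was -1.22 within 1.5-fold, -1.23 within 2-fold in each Input library, -1.83 against the 50 genes highest in Input, an alternative chosen after seeing the data, and -2.26 to -1.97 with 1 library left out. For IgG over Input (-1.14) it was -0.65 against those 50 genes and -1.30 to -0.90 with 1 library left out. Over the 1757 genes, the mean Cxcl12 share was 1.05% in Input, 0.336% for IgG and 0.280% for anti-m6A (0.524%, 0.304% and 0.164% of all counts); without the 10 largest genes of each library it was 0.345% in IgG and 0.180% in anti-m6A.

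Of 27 calls on other named genes, 6 held under each alternative and none reversed. Of 23 such results that were not called, none stayed the same throughout: of their 287 values under the alternatives, 71 gained a call and 18 changed sign. Among named genes that were not called against Input, Mmp14 turned with DESeq2's size factors (-0.20), library totals (-0.30), a minimum of 10 counts (-0.32) and DESeq2's Wald test (-0.20). Ccl7 turned with DESeq2's size factors (-0.35), library totals (-0.44) and the Wald test (-0.35), Gnb1 with library totals (-0.065) and a minimum of 10 counts (-0.090), and Ext2 in the fit of 2 groups (0.043). With 1 library left out, Sdc4 ran from -0.86 to 0.12, Ext2 from -0.39 to 0.33, Ccl7 from -0.91 to 4.54, Pf4 from -0.034 to 1.52 and Gnb1 from -0.059 to 0.90. The cause was not tested. Cxcl14 against IgG turned with library totals (-0.18). The IgG libraries, the shallowest, limit folds against genes at 0 there.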

Other observations

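Transcript length and the anti-m6A to Input ratio went together among the 50 genes highest in Input. Of the 46 others with an annotated length, the 23 genes with a longest transcript under 2 kb had a median ratio of 2.05 (range 0.361 to 3.69), and the 17 genes of 2 to 4 kb had a median of 1.05 (0.371 to 3.36). The 6 genes of 4 kb or more had a median of 0.425. Among them were Tnc (tenascin C) at 0.324, then Col1a2 (a collagen I chain), Lpl at 0.401, Igfbp5 (an IGF-binding protein) at 0.449 and Malat1 at 1.62. Cxcl12, at 0.456, belongs in the first, the middle or the last of these classes according to whether alpha, beta or gamma is the transcript counted, and the part of length in its ratio was not tested. The IgG to Input medians of the 3 classes were 1.66, 0.521 and 0.311.

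Matches to GGAC followed by any base but G in the longest transcript of the 10 genes of like Input level numbered from 1 in CYTB to 15 in Malat1, and 24 in Cxcl12. They had no single order with the ratio: Fstl1 holds 11 at a ratio of 0.441 and Fth1 3 at 3.28, but CYTB holds 1 at 0.698, Pfn1 10 at 3.12 and Malat1 15 at 1.62. These are counts in annotated sequence, and methylation at them was not measured.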
